A study of Mus musculus with 4 samples.

Results

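The genes described here encode inhibitors of proteases that work inside the cell or in its vesicles: the clade B serpins Serpinb1a, Serpinb2, Serpinb6a, Serpinb6b, Serpinb8 and Serpinb9, the clade A serpin Serpina3g and cystatin F (Cst7). The members were taken by gene symbol from the platform annotation. The list itself was chosen with the measured values of these arrays known, so the levels below are a description of genes selected on this pattern, with no test. Of the 8 genes, 7 had a probe set under their own symbol, out of 22180 genes named in all. Serpina3g was not analysed here because no probe set is listed under its symbol. Each of the 7 genes was read by 1 probe set. Serpinb2 and Serpinb6a each have 1 further probe set whose annotation names several genes, and it was left out.

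Mast cells of 4 kinds from BALB/c mice were compared, with 1 Affymetrix whole-transcript array for each. For the cultured groups, bone marrow was grown for 3 to 4 weeks in interleukin-3 and stem cell factor, both at 10 ng/ml, into bone marrow-derived mast cells (BMMCs). The control BMMCs then stayed 6 days in plain medium, and the TGF-β1 BMMCs were kept 6 days with TGF-β1 at 5 ng/ml. The Dll1 BMMCs were kept 6 days on Chinese hamster ovary (CHO) cells that express mouse Dll1, a ligand of Notch receptors, and were then selected for c-Kit (CD117) with magnetic beads. The intestinal mast cells were FcεRI-positive, c-Kit-positive cells of the small-intestinal lamina propria of naive mice, sorted by flow cytometry and not cultured. All arrays started from 2 ng of RNA, which was amplified. A bead selection is named for the Dll1 group alone, and no coculture with CHO cells lacking the ligand was analysed here. Culture, selection and tissue of origin therefore cannot be told apart from the group.

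Serpins act as bait: the protease cleaves an exposed loop of the serpin, the serpin then changes shape, and both stay bound and inactive. Clade B serpins mostly lack a signal peptide and sit in the cytosol and nucleus, where they are known for protecting granule-bearing leukocytes from proteases that leak from their own granules. Cystatins block cysteine proteases by filling the active-site cleft, and cystatin F is unusual in being sent to lysosomes and secretory granules. Mast cells store large amounts of chymases, tryptases and, in mice, granzyme B in their granules, so they carry many of the enzymes that these inhibitors bind.

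The promoters of 3 of the genes are shown first because these genes had the contrasting patterns given below: Serpinb2 was highest in the control BMMCs, Cst7 was high on every array, and Serpinb6b was highest in the intestinal cells. Each window runs from 250 bases before to 50 bases after a RefSeq transcription start (build GRCm38.p6), 5′ to 3′ on the gene's strand, and capitals mark the motif matches. The windows are chr1:107511173-107511472 (+) for Serpinb2, chr2:150570165-150570464 (+) for Cst7 and chr13:32965011-32965310 (+) for Serpinb6b.
Serpinb2: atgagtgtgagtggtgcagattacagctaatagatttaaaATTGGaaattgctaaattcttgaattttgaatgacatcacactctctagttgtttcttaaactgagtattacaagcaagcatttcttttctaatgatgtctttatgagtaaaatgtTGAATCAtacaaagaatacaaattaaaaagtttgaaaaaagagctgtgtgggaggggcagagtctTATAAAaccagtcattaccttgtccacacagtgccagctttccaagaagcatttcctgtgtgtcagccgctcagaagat
Cst7: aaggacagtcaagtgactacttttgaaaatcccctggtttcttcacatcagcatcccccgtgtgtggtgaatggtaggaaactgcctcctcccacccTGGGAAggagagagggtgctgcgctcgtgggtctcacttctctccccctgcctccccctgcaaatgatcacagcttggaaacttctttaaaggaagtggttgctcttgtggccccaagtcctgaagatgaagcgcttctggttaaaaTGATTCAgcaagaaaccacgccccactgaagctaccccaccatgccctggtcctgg
Serpinb6b: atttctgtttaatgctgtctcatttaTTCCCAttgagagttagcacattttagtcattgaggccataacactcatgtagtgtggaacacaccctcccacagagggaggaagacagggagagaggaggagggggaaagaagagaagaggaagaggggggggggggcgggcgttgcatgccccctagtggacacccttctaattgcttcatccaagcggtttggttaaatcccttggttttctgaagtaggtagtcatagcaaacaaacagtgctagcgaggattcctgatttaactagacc

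In all, 7 motifs were searched on both strands in these windows, and 7 of the 8 genes had a window in the table, in 9 windows in all. Serpinb1a was not among them. Serpinb2 has 2 overlapping windows, from 2 listed starts, and the first of them is printed. Counted from its start, the printed Serpinb2 window holds the TATA box letters TATAAA from 29 to 24 bases upstream of the start, letters that occur in 13.6% of the 32851 promoter windows of the same length. It also holds TGAATCA, a match to the AP-1 letters TGANTCA (7.81% of windows), from 94 to 88 bases upstream, and ATTGG, the reverse complement of the CCAAT box letters CCAAT (37.4% of windows), from 210 to 206 bases upstream. The Cst7 window holds the AP-1 match TGATTCA, which begins 6 bases upstream of the start, and the RBPJ letters TGGGAA (25.6% of windows) from 153 to 148 bases upstream. The Serpinb6b window holds the reverse complement of the RBPJ letters, TTCCCA, from 224 to 219 bases upstream. The SMAD letters CAGACA (21.0% of windows) and the E-box letters CACGTG (7.15% of windows) are in none of the 9 windows. Counted from the other Serpinb2 start, the same TATAAA lies from 116 to 111 bases upstream, and that window also holds the GATA letters AGATAA (11.2% of windows) from 41 to 36 bases upstream. The GATA letters are in none of the 3 windows printed. These are matches of letters and no measurement of binding.

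The deposited values are on a log2 scale and ran from 4.13 to 13.14 over all probe sets. A background limit was set for each array at the 95th percentile of 1440 probe sets for olfactory, vomeronasal and bitter taste receptors, and it came to 5.11 for the control, 5.20 for TGF-β1, 5.12 for Dll1 and 5.11 for the intestinal array. Between 11304 and 12370 genes per array were above it. All 13 measured mast cell markers of a list of 14 were above the limit on all 4 arrays, and their summed linear level was 36120, 32622 and 32531 on the control, TGF-β1 and Dll1 arrays and 18737 on the intestinal array. The list includes the granule protease genes Tpsb2 and Cma1, which had its largest intestinal falls from control (log2 -5.34 and -4.96). The list median was -0.74, and Hdc (0.29) and Hpgds (0.53) were higher. In the intestinal cells, 11 of 13 T and innate lymphoid markers were above the limit (all but Klrd1 and Klrb1c), with a summed level of 2835 against 374 to 844 on the BMMC arrays. There, 11 of 15 macrophage and dendritic markers (summed level 4506 against 1170 to 1360) were above it as well. So were 7 of 8 B and plasma cell markers (2097 against 285 to 422) and 13 of 18 epithelial markers (2228 against 615 to 731). Epcam, Krt19, Vil1, Cldn7, Phgr1, Ms4a1, C1qc, Mrc1, Zbtb46 and Marco were not above it. Single genes carry much of these sums. The highest log2 level on the intestinal array was 10.33 for the lymphoid, 11.19 for the macrophage and dendritic, 10.76 for the B and plasma cell and 10.12 for the epithelial list. In the Dll1 BMMCs, 13 of 14 neutrophil markers (summed level 2122 against 469 to 514) and 5 of 7 eosinophil markers (4273 against 217 to 470) were above the limit, though Siglecf, Il5ra and Retnlg were not. Immediate early and heat shock genes, which cell isolation can induce, had a median level of 5.81, 5.84, 9.36 and 11.21 in the order control, TGF-β1, Dll1, intestinal. The part of these cells and of this handling signal in the levels below was not tested.

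Serpinb2, also called plasminogen activator inhibitor 2, is the serpin that blocks urokinase. Its log2 level was 8.46 in the control BMMCs, 5.98 with TGF-β1, 6.83 with Dll1 and 4.92 in the intestinal cells, the last of these below the background limit. The control array was thus far above the others, and the intestinal array gave no signal over background. Fewer cells that express a gene and less RNA per cell cannot be told apart in such bulk samples.

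Serpinb1a, an inhibitor of neutrophil elastase, cathepsin G and chymase-like enzymes, had a log2 level of 11.97 in the control BMMCs, 11.62 with TGF-β1, 11.07 with Dll1 and 9.68 in the intestinal cells. It remained far above background everywhere while being lowest in the tissue cells. Its range of 2.29 in the deposited values was exceeded by 2.57% of the 13355 genes that passed the limit somewhere.

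Cst7, whose product cystatin F restrains cathepsin C, cathepsin L and legumain in lysosomes and granules, had a log2 level of 10.44 in the control BMMCs, 10.55 with TGF-β1, 10.15 with Dll1 and 9.51 in the intestinal cells. The 3 BMMC arrays lay close together and the intestinal array lay below them. Its range was 1.04, and 14.8% of the 13355 genes had a wider one.

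Serpinb6b, a mouse serpin that inhibits granzyme A, ran the other way. Its log2 level was 5.14 in the control BMMCs, just over the limit of that array, and 6.01 in the intestinal cells. On the TGF-β1 array (5.16) and the Dll1 array (4.96) it was below the limit of the array concerned. It was the only gene of the 7 with its highest level in the intestinal cells, an array that was the highest for 29.7% of the 13355 genes. The 7 include Serpinb8, which was below the limit on every array.

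The remaining serpins varied little. Serpinb6a, an inhibitor of cathepsin G, had log2 levels of 6.12, 6.30, 6.16 and 5.87 in the order control, TGF-β1, Dll1, intestinal, a range that 58.8% of the 13355 genes exceeded. Serpinb9, the inhibitor of granzyme B, had log2 levels of 5.87, 5.72, 5.92 and 5.66 in the same order, a range that 82.1% of those genes exceeded. A background limit at the 99th percentile would lie at 5.92, 5.83, 6.00 and 5.93. Serpinb9 was below that limit on all 4 arrays and Serpinb6a on the intestinal array, so little can be said of how flat Serpinb9 is. Serpinb8, an inhibitor of the proprotein convertase furin, was below the background limit on all 4 arrays, at 4.42, 4.47, 4.58 and 4.44, so nothing can be said of its level.

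**Figure D1:**
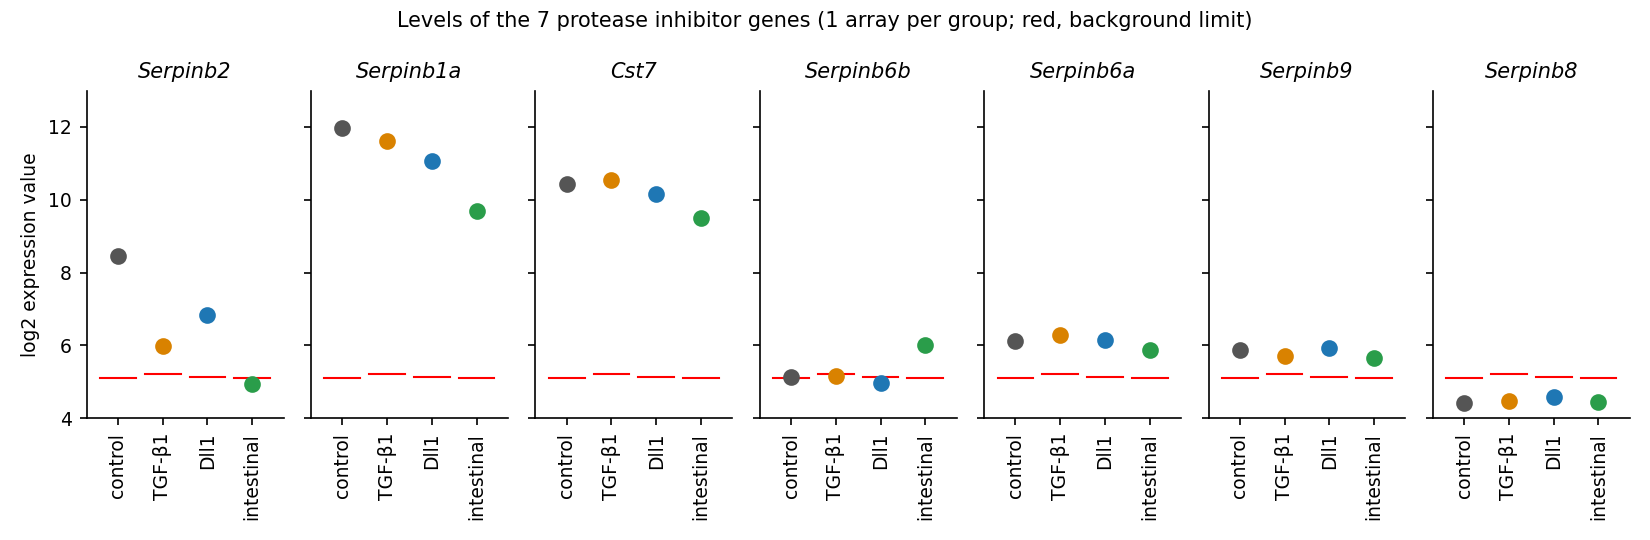
Deposited log2 expression value (y axis) of each of the 7 genes in the control, TGF-β1, Dll1 and intestinal mast cells, 1 point per array, with the background limit of each array as a red bar. Serpinb2 goes from 8.46 in the control to 4.92, below the limit, in the intestinal cells, Serpinb1a and Cst7 are lowest there, and Serpinb6b is highest there.

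Of the 7 genes, 5 (Serpinb1a, Serpinb2, Serpinb6a, Serpinb9 and Cst7) had their lowest level in the intestinal cells, an array that was the lowest for 33.1% of the 13355 genes. The order of levels within a gene differed. Serpinb1a went from control to TGF-β1 to Dll1 to intestinal, Serpinb2 from control to Dll1 to TGF-β1 to intestinal, and Cst7 from TGF-β1 to control to Dll1 to intestinal. With 1 array for each group no spread between replicates exists, so neighbours in these orders cannot be said to differ.

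In all, 6 comparisons were made between the arrays. A difference was taken with any value under the background limit raised to it, over genes that passed the limit on either array or both, and was called when it reached 2-fold. A fold that rests on a raised value is a bound and is given as "at least". As a gauge of technical spread, the log2 difference of 2 probe sets of 1 gene had a standard deviation around their mean of 0.24 (TGF-β1 minus control, 317 genes) to 0.48 (intestinal minus control, 322 genes), which is no replicate error. The comparisons share arrays, so their values stand side by side and do not support each other.

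With TGF-β1, Serpinb2 had the largest difference of the 6 inhibitors compared. It was 5.58-fold lower than in the control BMMCs, a log2 difference of -2.48, and 1 gene of the 12063 compared had a more negative difference. Serpinb1a was 1.28-fold lower (-0.36) and Serpinb9 1.11-fold lower (-0.15), while Serpinb6a (0.17), Cst7 (0.11) and Serpinb6b (0.06) differed little. The value for Serpinb6b rests on a TGF-β1 level raised to the limit, and was 0.02 as measured. Thus 1 of the 6 genes compared was lower by 2-fold and none was higher, where 0.887% of all genes compared were lower and 0.506% were higher by that much. At 1.5-fold the count was also 1, against 6.51% of all genes in either direction. The median log2 difference of the 6 genes was -0.06, and that of all genes was -0.03.

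With Dll1, Serpinb2 and Serpinb1a were both below the control BMMCs. Serpinb2 was 3.09-fold lower (-1.63), with 40 of 12806 genes more negative, and Serpinb1a was 1.87-fold lower (-0.90), short of the 2-fold rule. Cst7 was 1.23-fold lower (-0.30), and Serpinb6a, Serpinb6b and Serpinb9 had log2 differences of 0.03, -0.02 and 0.06. The -0.02 rests on a Dll1 level raised to the limit, and was -0.19 as measured. So 1 of 6 genes was lower by 2-fold and none was higher, against 1.78% lower and 1.63% higher among all genes. At 1.5-fold 2 genes differed, against 12.4% of all genes. The median was -0.24 for the 6 genes and 0.003 for all genes.

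The intestinal cells had the widest differences from the control BMMCs. Serpinb2 was at least 10.2-fold lower (-3.35), a bound set by the background limit that came to -2.53 with the limit at the 99th percentile. Serpinb1a was 4.89-fold lower (-2.29), at 20.4% of the control level on the linear scale. Cst7 was 1.91-fold lower (-0.93) and Serpinb6b 1.83-fold higher (0.87), both short of 2-fold, and Serpinb6a and Serpinb9 had differences of -0.25 and -0.20. By the 2-fold rule 2 of 6 genes were lower and none was higher, against 6.73% lower and 4.47% higher among all genes. At 1.5-fold the count was 4 (Serpinb1a, Serpinb2, Serpinb6b and Cst7), against 25.1% of all genes. The median was -0.59 for the 6 genes and -0.006 for all genes. The markers of mast cells had a median difference of -0.74 in this comparison, and 4 of 13 were lower by 2-fold (Tpsb2, Cma1, Slc18a2 and Gata1). The part of the cell makeup in the lower inhibitor levels was not tested. The 0.87 for Serpinb6b rests on levels close to background: with the limit at the 99th percentile it was 0.10.

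**Figure D2:**
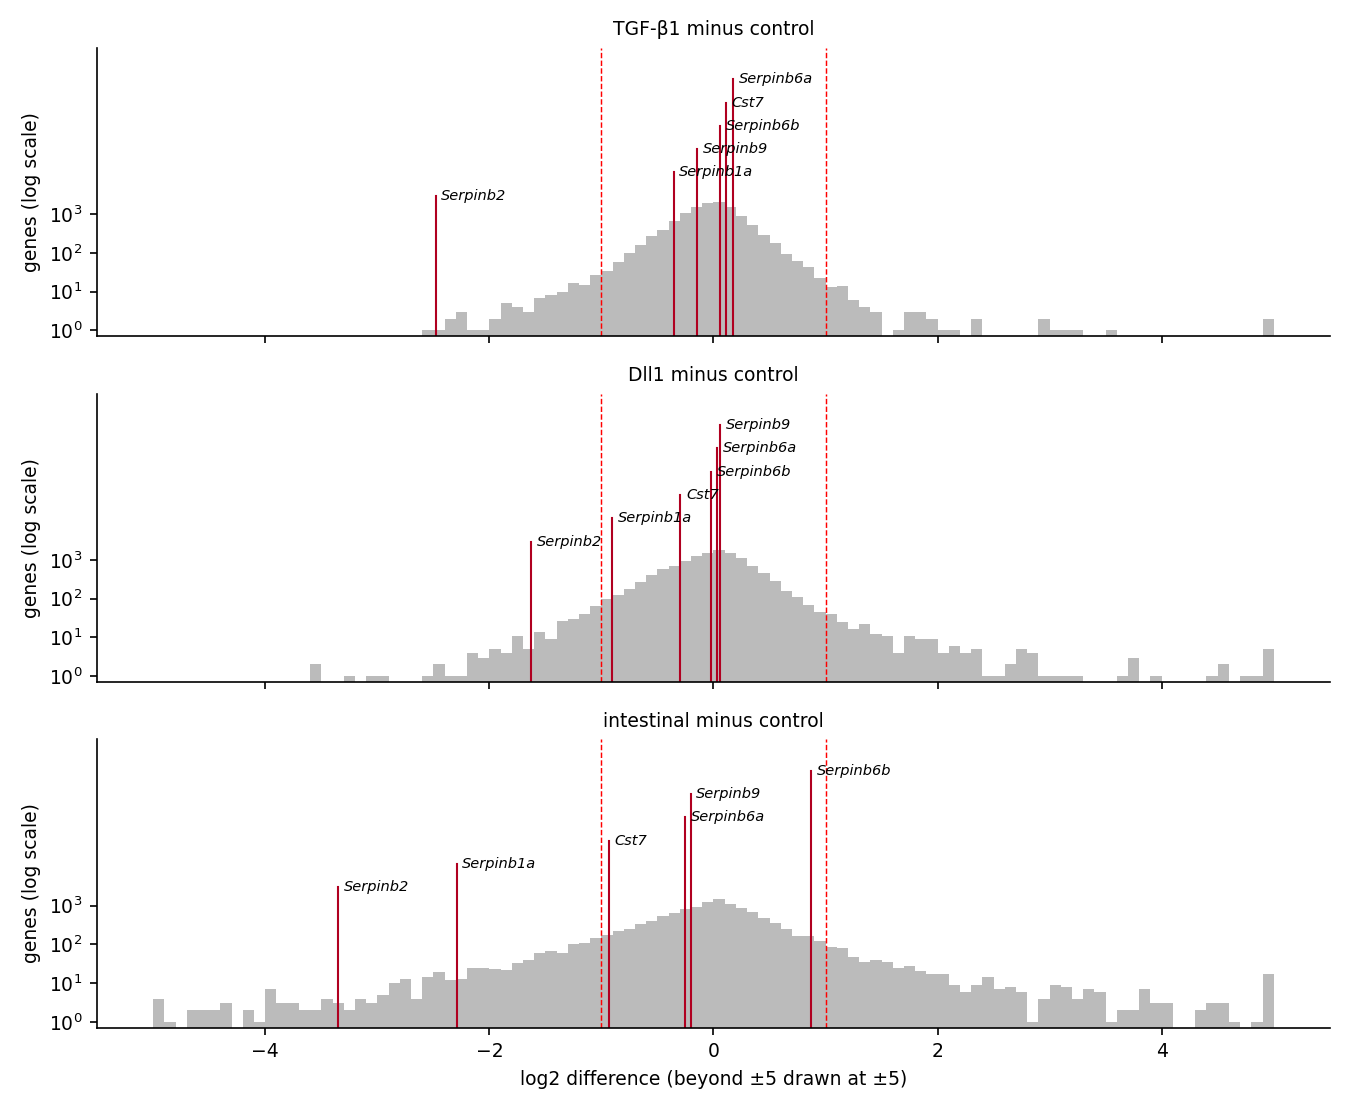
Number of genes (y axis, log scale) by log2 difference from the control array (x axis, bins of 0.1) for the TGF-β1, Dll1 and intestinal cells, with the inhibitors as red lines and 2-fold as dashed lines. The line of Serpinb2 lies in the lower tail in each panel (-2.48, -1.63 and -3.35), and that of Serpinb1a only in the intestinal panel (-2.29) lies beyond 2-fold.

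Among the 3 groups of cells set against each other without the control, the TGF-β1 and Dll1 BMMCs were close. Serpinb2 was 1.81-fold higher with Dll1 than with TGF-β1 (0.86), while Serpinb1a (-0.55), Cst7 (-0.41) and Serpinb6a (-0.14) were lower and Serpinb9 (0.21) was higher by less. None of the 5 genes compared reached 2-fold, against 2.19% of all genes higher and 1.89% lower, and 1 reached 1.5-fold, against 13.5%. The median was -0.14 for the 5 genes and 0.03 for all genes.

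Against the TGF-β1 BMMCs, the intestinal cells had less Serpinb1a and Cst7. Serpinb1a was 3.82-fold lower (-1.93) and Cst7 2.06-fold lower (-1.04), the one comparison in which Cst7 passed 2-fold. Serpinb2 was at least 1.82-fold lower (-0.87) from an already low TGF-β1 level, and Serpinb6b was at least 1.75-fold higher (0.81). Both rest on levels close to background: with the limit at the 99th percentile they were -0.05 and 0.18. By 2-fold, 2 of 6 genes were lower and none was higher, against 4.55% lower and 4.05% higher among all genes. At 1.5-fold the count was 4, against 20.6%. The medians were -0.74 for the 6 genes and -0.004 for all genes.

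Against the Dll1 BMMCs, Serpinb2 was at least 3.30-fold lower (-1.72) in the intestinal cells and Serpinb1a 2.61-fold lower (-1.39). Cst7 was 1.55-fold lower (-0.64), Serpinb6b at least 1.85-fold higher (0.89), and Serpinb6a (-0.29) and Serpinb9 (-0.26) differed little. Again 2 of 6 genes were lower by 2-fold and none was higher, against 4.13% lower and 3.56% higher among all genes, and 4 reached 1.5-fold, against 20.5%. The medians were -0.46 for the 6 genes and -0.03 for all genes. With the limit at the 99th percentile the Serpinb2 difference was -0.91 and no longer 2-fold, and that of Serpinb6b was 0.01.

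**Figure D3:**
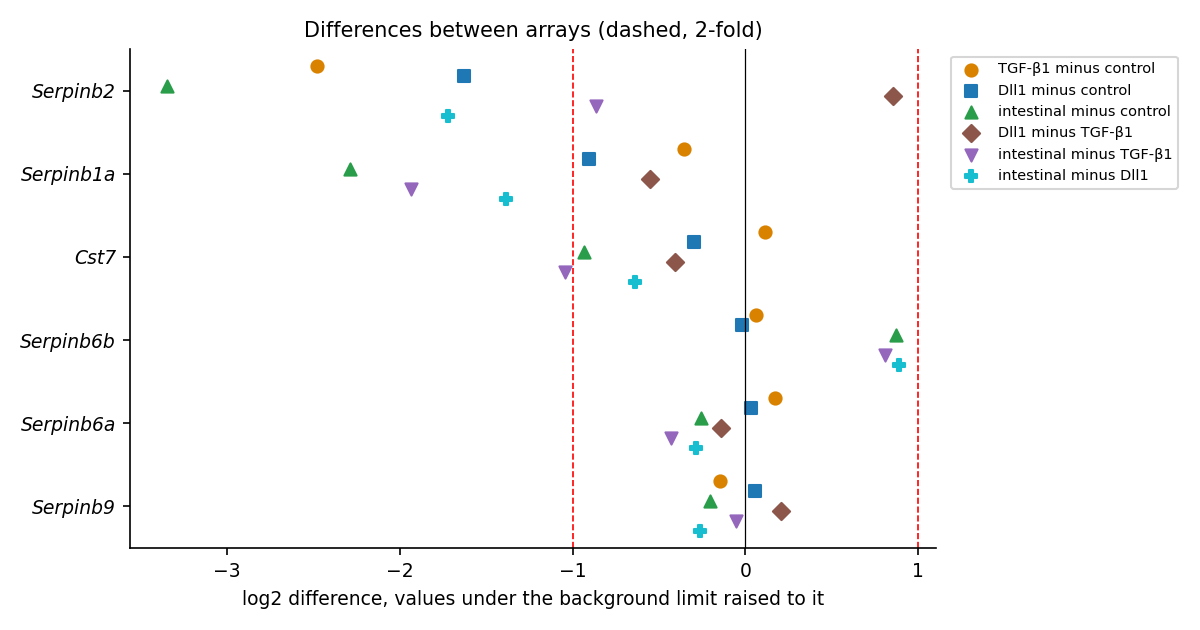
Log2 difference (x axis, values under the background limit raised to it) of 6 inhibitors in the 6 comparisons, 1 symbol per comparison, with 2-fold as dashed lines. Serpinb2 and Serpinb1a have values beyond 2-fold lower in several comparisons, Cst7 reaches -1.04 against TGF-β1, and the intestinal differences of Serpinb6b lie between 0.81 and 0.89.

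The proteases that these inhibitors are known to bind were read on the same arrays, within each gene across arrays. Plau (urokinase), the target of Serpinb2, had log2 levels of 8.38, 7.59, 7.53 and 5.58 in the order control, TGF-β1, Dll1, intestinal, so it too was highest in the control and lowest in the intestinal cells. It was 6.99-fold lower in the intestinal cells than in the control BMMCs. The urokinase receptor Plaur had 6.43, 5.90, 7.29 and 9.07. It was thus below the control with TGF-β1, as Plau was, but above it with Dll1 and 6.23-fold higher in the intestinal cells. Plgrkt, a plasminogen receptor, was 2.58-fold lower with Dll1 and 3.31-fold lower in the intestinal cells. In the 5-gene plasminogen activation list, 3 genes could be compared in the intestinal cells against control. Of these, 1 was higher and 2 were lower by 2-fold, against 4.47% and 6.73% of all genes. With Dll1, 4 were compared, none was higher and 1 was lower, against 1.63% and 1.78%. With TGF-β1 none reached 2-fold, against 0.506% higher and 0.887% lower among all genes, and the 3 genes compared had a median of -0.79.

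For Serpinb1a the target proteases differed in direction. Cathepsin G (Ctsg) had log2 levels of 5.41, 5.93, 8.70 and 8.64 in the order control, TGF-β1, Dll1, intestinal, and was 9.79-fold higher with Dll1 and 9.38-fold higher in the intestinal cells. Neutrophil elastase (Elane) was above the limit with Dll1 only, at 8.76, at least 12.5-fold over the control, and proteinase 3 (Prtn3) was 4.76-fold higher with Dll1. Both are neutrophil granule genes and belong to the neutrophil marker list given above, which was high on the same array. They are thus part of the summed level of that list. Whether neutrophil-lineage cells contributed was not tested. The chymase Cma1 was 31.1-fold lower in the intestinal cells than in control BMMCs, at 12.12, 11.98, 11.37 and 7.16. Other mast cell protease genes of the granule list were higher in the intestinal cells than in the control. In the same order, Mcpt1 had 4.82, 12.41, 12.46 and 12.72, and Mcpt2 had 5.75, 12.35, 11.74 and 12.33. Mcpt4 had 4.53, 5.04, 10.15 and 10.41. The control levels of Mcpt1 and Mcpt4 were below the limit, as was the TGF-β1 level of Mcpt4. The cells with the lowest Serpinb1a were thus high in cathepsin G, Mcpt1, Mcpt2 and Mcpt4 and low in Cma1. These high levels were not particular to the intestinal cells. Mcpt1 and Mcpt2 were also high with TGF-β1 and Dll1, and cathepsin G and Mcpt4 with Dll1. The tryptase genes Tpsb2 and Tpsab1 were 40.6-fold and 7.93-fold lower in the intestinal cells than in the control.

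Granzyme A (Gzma), the target of Serpinb6b, was below the limit in control and TGF-β1 BMMCs, 7.92 with Dll1 and 10.33 in the intestinal cells. It was at least 37.2-fold over the control there, where Serpinb6b was also at its highest, but at least 7.02-fold over it with Dll1, where Serpinb6b was below the limit. Granzyme A is also made by T and natural killer cells and belongs to the lymphoid marker list given above. Of that list, 5 of the 12 genes compared were higher by 2-fold on the intestinal array than on the control, against 4.47% of all genes. Granzyme A is itself among these 5 and had the highest level of the list there, so neither the count nor the summed level is independent of it. The part of such cells was not tested. Granzyme B (Gzmb), the target of Serpinb9, was high on every array, at 11.70, 11.17, 12.19 and 11.77, and 2.02-fold higher with Dll1 than with TGF-β1. Of the 17 serine proteases of granules, 11 could be compared with TGF-β1, 15 with Dll1 and 16 in the intestinal cells, all against control. With TGF-β1, 3 were higher and none was lower by 2-fold (0.506% and 0.887% of all genes). With Dll1, 9 were higher and none was lower (1.63% and 1.78%). In the intestinal cells, 9 were higher and 3 lower (4.47% and 6.73%). The medians of those compared were 0.22, 2.25 and 1.81.

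Of the cysteine proteases that cystatin F restrains, cathepsins C and L varied less than legumain. Cathepsin L was below the 99th percentile limit on the 3 BMMC arrays, so little can be said of how flat it is. Cathepsin C (Ctsc), the activator of granzymes and chymases, had log2 levels of 10.32, 10.37, 10.18 and 9.91 in the order control, TGF-β1, Dll1, intestinal, and cathepsin L (Ctsl) had 5.91, 5.57, 5.85 and 6.43, without a 2-fold difference in any comparison. Legumain (Lgmn), which processes other lysosomal enzymes, had 6.07, 5.57, 7.16 and 7.69 and was 2.13-fold higher with Dll1 and 3.08-fold higher in the intestinal cells than in the control. Cathepsin W (Ctsw), a protease of T and natural killer cells, was at least 4.84-fold higher in the intestinal cells. Of the 11 genes of this list, 9 could be compared with TGF-β1 and 10 each with Dll1 and in the intestinal cells, each against control. None was 2-fold apart with TGF-β1, against 0.506% higher and 0.887% lower among all genes. With Dll1, 2 were higher and none was lower, against 1.63% and 1.78% of all genes. In the intestinal cells, 4 were higher and 1 lower, against 4.47% and 6.73%. Of the 4 caspases listed, Casp12 was below the limit on all 4 arrays and was not compared. Casp1, Casp4 and Casp8 did not reach 2-fold in any of the 6 comparisons. Over these comparisons, 0.506% to 4.47% of all genes were higher and 0.887% to 6.73% were lower by that much.

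**Figure D4:**
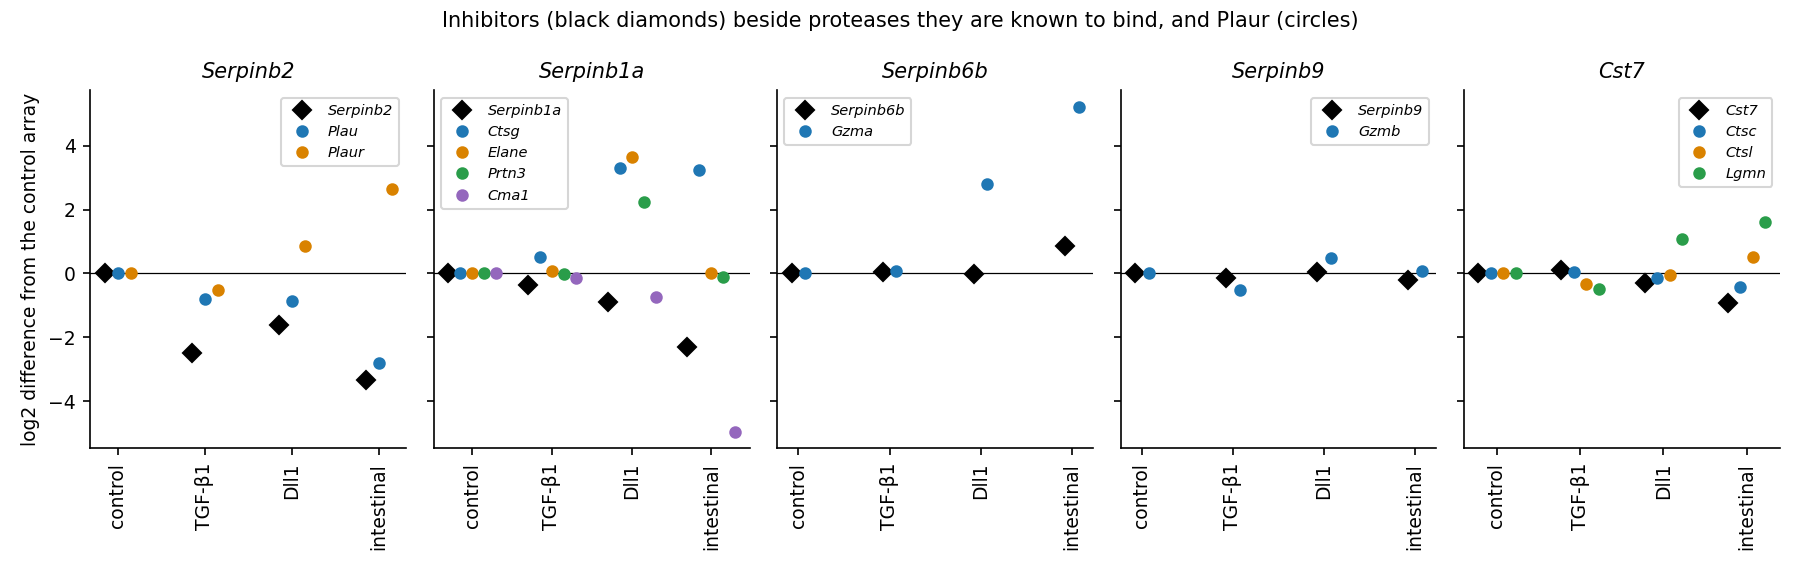
Log2 difference from the control array (y axis) of 5 inhibitors (black diamonds) and of proteases they are known to bind, with the urokinase receptor Plaur (circles), on each of the 4 arrays. Serpinb2 and Plau are both lowest in the intestinal cells, while Ctsg is above and Cma1 below the control there as Serpinb1a is at -2.29.

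Other inhibitor families were mostly below the background limit in these cells. Of 21 further clade B serpins, 19 were measured and 2 were above the limit, Serpinb1c (5.37, 5.34, 5.20 and 5.23 in the order control, TGF-β1, Dll1, intestinal) and Serpinb9b (5.60, 5.45, 5.52 and 5.40), with no 2-fold difference. Of 10 further clade A3 serpins, 5 were measured and none was above the limit. Of 23 secreted serpins, 21 were measured, at most 4 could be compared, and none reached 2-fold. Over the 6 comparisons, 0.506% to 4.47% of all genes were higher and 0.887% to 6.73% were lower by 2-fold. Among the cystatins, 19 of 22 were measured. Cystatin C (Cst3), the general secreted cystatin, had 11.22, 11.18, 11.07 and 10.42, and cystatin B (Cstb), which acts in the cytosol, had 8.93, 8.98, 8.47 and 8.66, again with no 2-fold difference.

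Inhibitors of other structural classes gave most of the remaining differences, over 28 measured genes of 29. In the intestinal cells against control, 18 could be compared. Of these, 2 were higher and 4 were lower by 2-fold, against 4.47% and 6.73% of all genes. The peptidase inhibitor gene Pi16 was at least 9.97-fold higher (5.04, 5.41, 5.21 and 8.43 in the order control, TGF-β1, Dll1, intestinal). The inhibitor of apoptosis family gene Naip2, which also senses bacterial secretion proteins, was at least 5.36-fold lower (7.53, 6.82, 6.49 and 5.05), its relative Naip5 3.12-fold lower, and the membrane-bound Kunitz inhibitor Spint1 3.64-fold lower (7.21, 7.41, 7.75 and 5.35). With Dll1 against control, 19 could be compared. Of these, 1 was higher and 2 were lower by 2-fold, against 1.63% and 1.78% of all genes. Itih5 was 2.68-fold higher (5.94, 5.79, 7.36 and 6.21 in the same order). Naip2 was 2.06-fold lower and the calpain inhibitor calpastatin (Cast) 2.05-fold lower. With TGF-β1 none of the 17 genes compared reached 2-fold, where 0.506% of all genes were higher and 0.887% were lower by that much.

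In the genome order of RefSeq, the clade B genes lie in a cluster on chromosome 1 and another on chromosome 13. Of 12 genes in the chromosome 1 cluster, 10 were measured and Serpinb2 alone was above the limit on any array. Serpinb8, separated from it by Serpinb10, was below the limit, as was Serpinb7 on the other side. Of 16 genes in the chromosome 13 cluster, 15 were measured, 6 were above the limit on at least 1 array and 5 on all 4. The neighbours of this cluster showed 2 patterns. Wrnip1, next to Serpinb1a, was flat at 7.55, 7.60, 7.50 and 7.59, and Nqo2, next to Serpinb6a at the far end, had 7.35, 7.27, 6.87 and 6.11 and was lower in the intestinal cells than in the control by over 2-fold. Beside Cst7, Apmap had 7.12, 7.49, 7.28 and 6.95 and Zfp345 was below the limit.

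**Figure D5:**
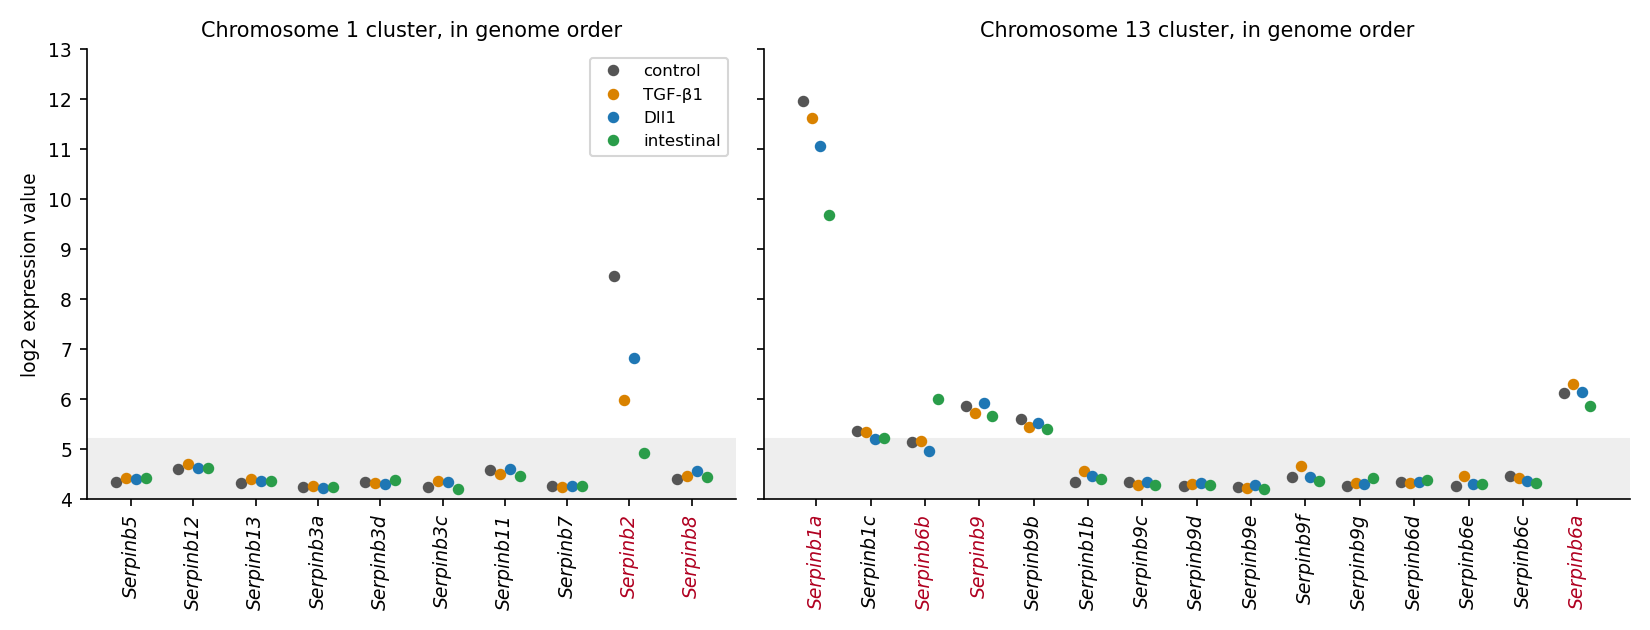
Deposited log2 expression value (y axis) of the measured clade B serpin genes in the genome order of the clusters on chromosomes 1 and 13, 1 point per array, with the grey band up to the highest background limit and the described genes in red. Serpinb2 is the only gene of the chromosome 1 cluster above the limit, and Serpinb1a has the highest points of the chromosome 13 cluster, from 9.68 to 11.97.

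For each gene the 3 genes of most similar pattern were found by the Euclidean distance over the 4 log2 values, each centred on the gene's own mean and with values below the limit as deposited, among 13354 other genes. For Serpinb1a they were Marchf8 (distance 0.13), Dhrs1 (0.19) and Krba1 (0.21). Marchf8, a membrane-bound ubiquitin ligase, had levels of 9.03, 8.85, 8.25 and 6.83 in the order control, TGF-β1, Dll1, intestinal. For Serpinb2 the nearest were farther off, Cyp4a12b (0.63), Mamdc2 (0.82) and Gm13842 (0.85), and Cyp4a12b had 8.42, 6.55, 7.61 and 5.61. For Serpinb6b they were Nmi (0.046), Prmt9 (0.047) and D030028A08Rik (0.054), and Nmi, an interferon-inducible gene, had 7.57, 7.58, 7.43 and 8.42. For Cst7 they were Clk2 (0.040), Zfp825 (0.044) and Gm7694 (0.046). Serpinb6a was nearest to Slc25a39, Tm9sf1 and Cpped1 and Serpinb9 to Septin8, Cnot8 and Xpot, each at a distance under 0.03.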

How the data were processed

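RNA of 4 mast cell preparations was measured on Affymetrix whole-transcript arrays, 1 array per group, after amplification with the GeneChip WT Pico kit, per the labels' protocols. The deposited series table holds log2 values for 33793 probe sets. The normalization, software and build were not given in the sources used here. At equal rank, the highest and lowest of the 4 arrays were 0.055 apart on average and 0.248 at most, so nothing further was normalized. The platform annotation gave 23521 probe sets 1 symbol, 1814 several, and 8458 are not listed in it. The probe set with the highest mean stood for a gene (1082 genes had more than 1). The depth of an array is not a read count, and with 1 array per group no error, interval or p-value exists: calls rest on a 2-fold rule. The 2-fold rule was tested on simulated data, and that gives no measure of error for these 4 arrays. Named genes were the members, up to 4 of each list with the largest differences of at least 2-fold, the 3 nearest patterns and the RefSeq neighbours. Not every gene that met that rule is named. Proteases, caspases, cystatins and serpins outside it were named after their values were seen, the proteases for their known binding to a member. Itih5, Cast and the marker genes were also named after their values were seen. The members and lists were chosen with earlier results of these data known. Promoters and gene order came from RefSeq tables. Alternatives were another scaling, limit, offset, probe set rule and fold. The work used Python 3.11.15, pandas 2.3.3 and numpy 2.4.6.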

Additional observations from a re-analysis of the deposited data

How the results depend on the processing

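At 1.5-fold in place of 2-fold, the counts of inhibitors called became 2 (Dll1 minus control), 4 (intestinal minus control), 1 (Dll1 minus TGF-β1), 4 (intestinal minus TGF-β1) and 4 (intestinal minus Dll1). When 16 was taken off the linear values before log2, 1 was called for Dll1 minus TGF-β1 (Serpinb2, 1.06) and 4 for intestinal minus TGF-β1, where Serpinb2 (-1.34) and Serpinb6b (1.22) joined, and Serpinb6b also passed 2-fold against control (1.33) and Dll1 (1.37). With the background limit at the 99th percentile, 1 was called for intestinal minus Dll1 (Serpinb1a). No called difference reversed under the alternatives run. Serpinb6b was below the 99th percentile limit on every BMMC array. Its values under that setting (TGF-β1 minus control -0.08, Dll1 minus control 0.08) are therefore differences between the limits alone. Subtracting array medians or repeating quantile normalization moved none of the 42 differences of the genes beyond the gauge of spread. Averaging probe sets could not change them, as each gene has 1 probe set. Without any limit, Serpinb2 was called for intestinal minus TGF-β1 (-1.05) and Serpinb6b for intestinal minus Dll1 (1.06). No paired analysis was possible because each group has 1 array, and for the same reason no replicate could be left out. The signal over background limits what can be said of Serpinb6b, of Serpinb9 and of Serpinb2 in the intestinal cells.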
